A study of Mus musculus with 2 samples.

Results

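Ccl17, Ccl22, Ccr4, Ccr7, Cd83 and Mgl2 were followed through the tumor single-cell transcriptomes, as 6 genes of the 32285 in the deposited gene list. They were picked by symbol, with it already known from earlier results of these data that several had few unique molecular identifiers (UMIs, single captured RNA molecules) after treatment. The difference between the libraries in these genes is therefore given as a description, and their place among the cell classes is what the choice of genes did not use.

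The libraries came from MC38 tumors, the subcutaneous mouse colon adenocarcinoma line grown in C57BL/6 mice. 1 library was labelled untreated and 1 was labelled MSA-2, a nonnucleotide agonist of STING, the adaptor that turns cytosolic DNA sensing into interferon production. GEO's design text gives the control as an injected vehicle, saline with 10% DMSO, and both arms as intratumoral injections every 3 days for 3 doses, with the tumors of 3 mice pooled. Each condition was thus 1 library, no test between conditions was possible, and treatment, pool and library cannot be told apart. After removal of poor barcodes and doublets, 13334 untreated and 13346 MSA-2 cells remained, with a median of 8291 and 9223 UMIs. They shared 53 barcode sequences. The labels call the cells tumor cells, but many held leukocyte genes, and no cluster met the naming rule for an epithelial list of simple keratins and Epcam, so the large population low in Ptprc (CD45) was left unnamed. Levels are given as CPM, a gene's UMIs per 1000000 UMIs of the same cells, with 95% intervals that cover counting error only.

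Dendritic cells (DCs) take up antigen in tissue and, on maturation, raise Ccr7, the receptor that guides them along Ccl19 and Ccl21 toward lymphoid tissue. Cd83 is a surface protein of activated antigen-presenting cells that stabilizes MHC class II. Ccl17 and Ccl22 are chemokines of DCs and macrophages, and both bind Ccr4, a receptor of regulatory and type 2 helper T cells. Mgl2 (CD301b) is a galactose-binding C-type lectin of type 2 DCs and some macrophages. Mature DCs rich in regulatory molecules are called mregDCs and arise from both type 1 (cDC1) and type 2 (cDC2) conventional DCs.

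The ligand genes are neighbours on mouse chromosome 8 in GRCm38, the build behind mm10: Ccl22 (ENSMUSG00000031778) lies at chr8:94745684-94751388 and Ccl17 (ENSMUSG00000031781) at chr8:94809380-94812038, 57991 bases apart with Cx3cl1 between them. Since they share a neighbourhood but differed in how much of each was left after MSA-2, their promoters are shown. Of the 6 genes, 4 had a promoter entry in the RefSeq table (GRCm38.p6), and Ccr7 (chr11:99144199-99155077) and Cd83 (chr13:43785112-43803133) did not. Ccr4 lies at chr9:114490316-114505476 and Mgl2 at chr11:70130125-70137542. Each sequence runs from 250 bases before to 50 bases after a transcript start, on the plus strand (chr8:94810203-94810502 for Ccl17 and chr8:94745434-94745733 for Ccl22). The Ccl17 window lies wholly inside the gene span given above, whereas the Ccl22 window includes the first base of its gene. Capitals mark matches to 4 motifs searched on both strands.
Ccl17: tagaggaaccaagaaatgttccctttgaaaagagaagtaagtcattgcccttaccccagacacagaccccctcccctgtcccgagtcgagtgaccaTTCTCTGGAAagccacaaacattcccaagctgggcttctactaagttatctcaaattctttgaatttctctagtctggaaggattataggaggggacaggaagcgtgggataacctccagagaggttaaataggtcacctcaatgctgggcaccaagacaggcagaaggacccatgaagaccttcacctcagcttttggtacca
Ccl22: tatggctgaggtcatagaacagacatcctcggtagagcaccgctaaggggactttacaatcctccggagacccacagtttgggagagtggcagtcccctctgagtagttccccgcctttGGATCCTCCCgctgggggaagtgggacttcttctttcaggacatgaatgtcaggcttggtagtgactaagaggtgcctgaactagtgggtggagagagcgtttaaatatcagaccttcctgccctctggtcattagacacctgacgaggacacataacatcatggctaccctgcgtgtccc

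The Ccl17 window held 1 match to the STAT6-type motif TTCNNNNGAA, 154 bases before the start, a motif found in 6.95% of the 32851 promoters of this length. The Ccl22 window held none of these but 1 match to the NF-kB-type motif GGGANNNNCC, on the opposite strand 131 bases before the start, a motif in 20.7% of promoters. Neither window held the interferon-response-type motif GAAANNGAAA (3.44% of promoters) or the AP-1-type motif TGANTCA (7.81%). No match overlapped another, and a match describes letters only, not a bound site.

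Over all kept cells, 5 of the 6 genes were at least 2-fold lower in the MSA-2 library, where 9.16% of the 21040 genes with 10 or more UMIs were, and none was at least 2-fold higher (12.5% of genes). Since known low counts chose the genes, nothing is read from that count. Ccl17 had 1496 UMIs untreated and 47 after MSA-2 (8.16 and 0.247 CPM). Mgl2 had 1522 and 15 UMIs, the widest gap of the 6, at a log2 ratio of -6.72 (interval -7.56 to -5.99). Both genes were close to gone from the treated pool. Ccl22 went from 927 to 79 UMIs (5.05 to 0.415 CPM). Ccr7 went from 2113 to 315 UMIs (11.5 to 1.65 CPM), and Cd83 from 14021 to 1278 (76.4 to 6.71 CPM). Ccr4 had only 25 and 18 UMIs, a log2 ratio of -0.53 whose interval, -1.49 to 0.40, holds no change. A total over all cells cannot separate fewer cells of a type from less RNA per cell, so each gene was followed class by class.

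**Figure D1:**
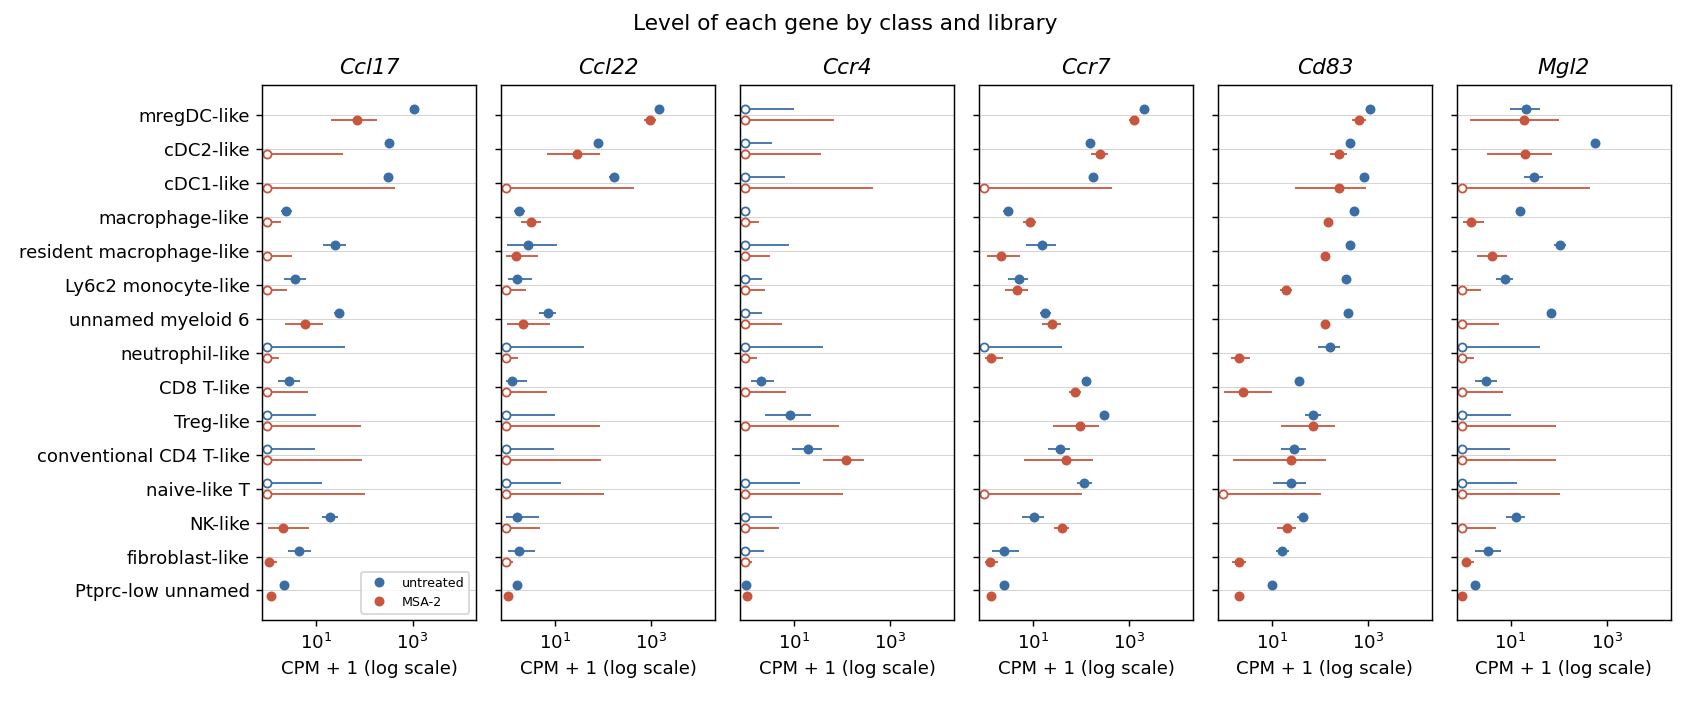
Level of the 6 genes in 15 cell classes, as CPM + 1 on a log axis, for the untreated (blue) and MSA-2 (red) libraries. Lines are 95% Poisson intervals and open circles are 0 UMIs. Ccl22 and Ccr7 peak in mregDC-like cells in both libraries (1413 and 939 CPM for Ccl22), Ccl17 is at 0 in cDC2-like cells after MSA-2, and Cd83 is lower in every macrophage and monocyte class.

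The classes were built with the 6 genes left out of both the clustering and the marker lists. 3 DC classes were followed: mregDC-like cells (Fscn1, Cacnb3, Il4i1), cDC2-like cells (Cd209a, Clec10a, H2-DMb2) and cDC1-like cells (Xcr1, Clec9a). A further class, of plasmacytoid DC-like (pDC-like) cells, numbered 17 untreated and 2 after MSA-2. It was too small to compare and was not added to these 3. The untreated library held 71 mregDC-like cells, 0.532% of its cells, and the MSA-2 library 14 (0.105%), a log2 ratio of shares of -2.34 (interval -3.29 to -1.50). cDC2-like cells numbered 242 and 33, and cDC1-like cells 64 and 2. These shares were taken beside neutrophil-like cells that went from 55 to 2645. Against macrophage-like cells, which themselves went from 2442 to 800, the gap was smaller: 2.91 and 1.75 mregDC-like cells per 100 macrophage-like cells, and 9.91 and 4.12 cDC2-like cells. For cDC1-like cells it stayed wide, at 2.62 and 0.25. In cDC2-like cells Cd209a, Clec10a and H2-DMb2 had 92, 136 and 348 UMIs untreated but 1, 5 and 5 after MSA-2. There the class's own 8-gene list summed to 905 and 469 CPM and the macrophage list to 3741 and 689 CPM. The Ly6c2 monocyte list summed to 1980 and 5571 CPM. What part the make-up of this class had in comparisons within it was not tested.

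The label of DC maturation held for the untreated mregDC-like cells, in which Ccr7 reached 1953 CPM, Ccl22 1413, Cd83 1101 and Ccl17 1091, each above its level in all other named classes. No empty droplets were used here, so the level of free RNA was not measured. In the population low in Ptprc, taken as the cells least likely to express them, the same genes stood at 1.61, 0.641, 9.37 and 1.25 CPM, and after MSA-2 at 0.380, 0.0798, 1.14 and 0.227 CPM. Shares of cells with a UMI in that population were 3.04% for Ccr7, 1.31% for Ccl22 and 2.60% for Ccl17, at a median of 20304 UMIs per cell, against 5233 in mregDC-like cells. Free RNA would weigh more in shallower cells, so these CPM values are a low estimate for them.

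**Figure D2:**
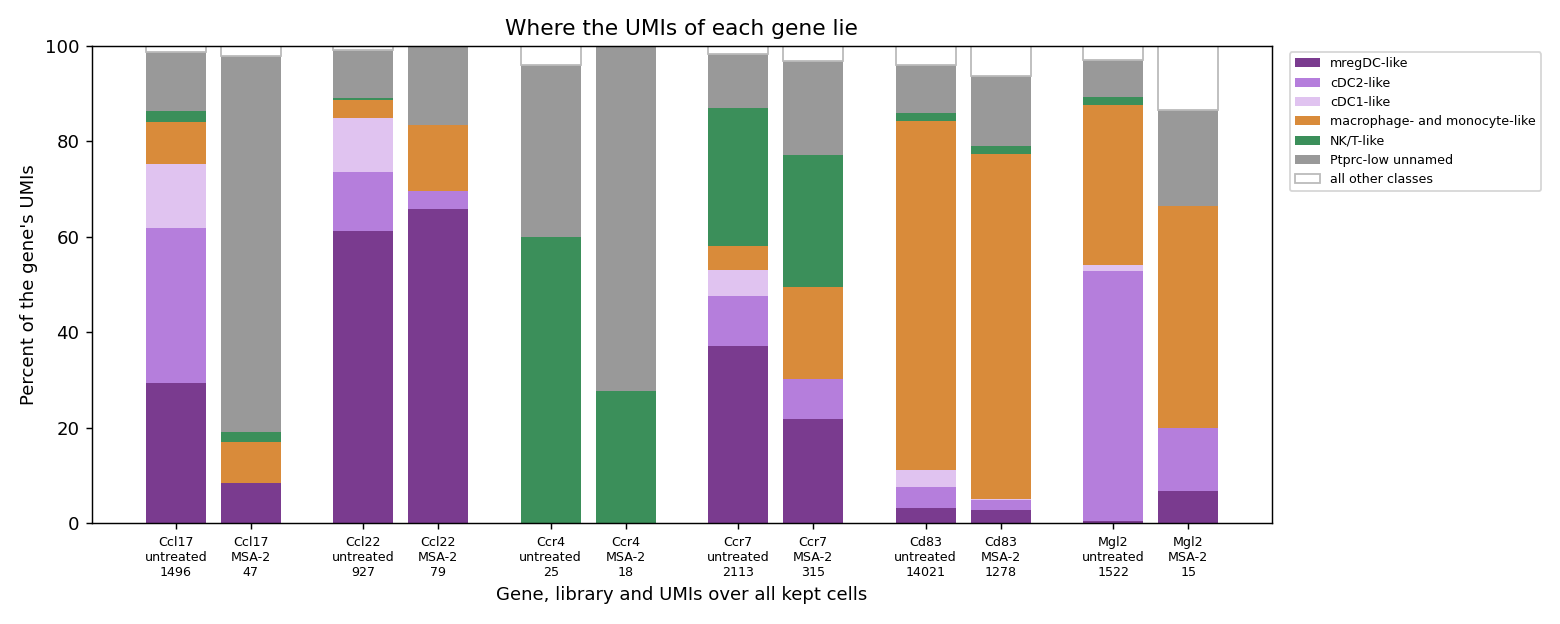
Percent of each gene's UMIs that lies in each class, with the total UMIs under each bar. In the untreated library mregDC-like cells hold 61.2% of Ccl22 and 37.1% of Ccr7, cDC2-like cells 52.4% of Mgl2, and macrophage-like cells, drawn together with the other macrophage and monocyte classes, 56.4% of Cd83. In the MSA-2 library 78.7% of the 47 Ccl17 UMIs lie in the population low in Ptprc.

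Ccl22 was the most concentrated of the ligands. Of its untreated UMIs, 61.2% (interval 57.9 to 64.3) lay in mregDC-like cells, 12.4% in cDC2-like and 11.4% in cDC1-like cells. 62 of 71 mregDC-like cells had a Ccl22 UMI (87.3%), and 71.2% did once each cell was thinned to 1500 UMIs. Macrophage-like cells were at 0.844 CPM, close to the 0.641 CPM of the population low in Ptprc. After MSA-2 the 14 mregDC-like cells held 52 of the 79 Ccl22 UMIs (65.8%), in 10 of the cells and at 939 CPM, a log2 ratio of -0.59 (interval -1.03 to -0.18). In cDC2-like cells 115 UMIs (78.2 CPM) compared with 3 UMIs, all in 1 cell, an interval that reaches 0.14. Macrophage-like cells had 9 Ccl22 UMIs in 7 of 800 cells after MSA-2 (2.26 CPM), against 0.0798 CPM in the population low in Ptprc. At the untreated UMIs per cell, 14 mregDC-like cells would hold 112 Ccl22 UMIs, and 52 were counted: the log2 ratio of cells per class was -2.34 and that of UMIs per cell was -1.10. Over mregDC-like, cDC2-like and cDC1-like cells together the level was 313 and 327 CPM. mregDC-like cells held 401348 of the 2515298 UMIs of these classes untreated and 55400 of 168170 after MSA-2. The pooled level therefore also moves with the mix of classes, and it does not show an unchanged level within them.

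The Ccl17 UMIs of the untreated library were spread over cDC2-like cells (32.6%), mregDC-like cells (29.3%) and cDC1-like cells (13.4%). 85 of 242 cDC2-like cells held 488 Ccl17 UMIs (332 CPM), with up to 30 in a cell. None of the 33 cDC2-like cells of the MSA-2 library had any, which allows up to 9.09% of cells with a UMI at this depth, not of cells expressing the gene. By the limit of 3 counts the level was at least 11.5-fold lower. That limit takes UMIs as independent, whereas Ccl17 UMIs were clumped, so 1 missed cDC2-like cell could hold more than 3. Median depth in that class was 5870 UMIs untreated and 3250 after MSA-2. After thinning to 1500 UMIs, a Ccl17 UMI was found in 47 of 235 cells untreated and in 0 of 25 after MSA-2. In mregDC-like cells 438 UMIs in 40 of 71 cells compared with 4 UMIs in 2 of 14 cells (1091 and 72.2 CPM), a log2 ratio of -3.92 (interval -5.80 to -2.55). At the untreated UMIs per cell, 86.4 UMIs would have been counted. Of the 4 members with 10 or more UMIs in mregDC-like cells, Ccl17 was at least 2-fold lower (23.9% of the 5117 genes tested there were) and none was at least 2-fold higher (13.3% of genes). Picking cells instead by UMIs of at least 4 of the 12 mregDC markers took 85 untreated and 19 MSA-2 cells. There the log2 ratios were -4.58 for Ccl17, -1.25 for Ccl22, -1.53 for Ccr7 and -1.14 for Cd83. Mgl2 had 36 and 1 UMIs, a log2 ratio of -2.84. The share of all genes that were lower was not counted in these cells, so nothing is read from the number of members. In cDC2-like cells Ccl17, Ccl22 and Mgl2 were at least 2-fold lower, 3 of 5 (27.1% of 8809 genes), and none was at least 2-fold higher (12.6% of genes).

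Within mregDC-like cells the change in Ccl17 can be set against that in the other genes, as class totals of cells and UMIs drop out. Differences between deep and shallow cells do not. Median depth was 5233 UMIs untreated and 3684 after MSA-2. The untreated cells with most Ccl17 (59, 52 and 48 UMIs) were deep, at 11138, 13411 and 10765 UMIs. What part depth had in these ratios was not tested. There were 77.2 Ccl17 UMIs for every 100 Ccl22 UMIs untreated and 7.69 after MSA-2, a log2 difference of -3.33 (exact interval -5.27 to -1.87). Against Ccr7 the difference was -3.27 (interval -5.19 to -1.83), and against Cd83 it was -3.16 (interval -5.12 to -1.66). These ratios describe 2 libraries and genes chosen for their low counts, and the MSA-2 side rests on 4 Ccl17 UMIs in 2 of 14 cells. Leaving out the cell with most Ccl17 in each library left 379 and 2 UMIs and a log2 ratio of -4.69.

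**Figure D3:**
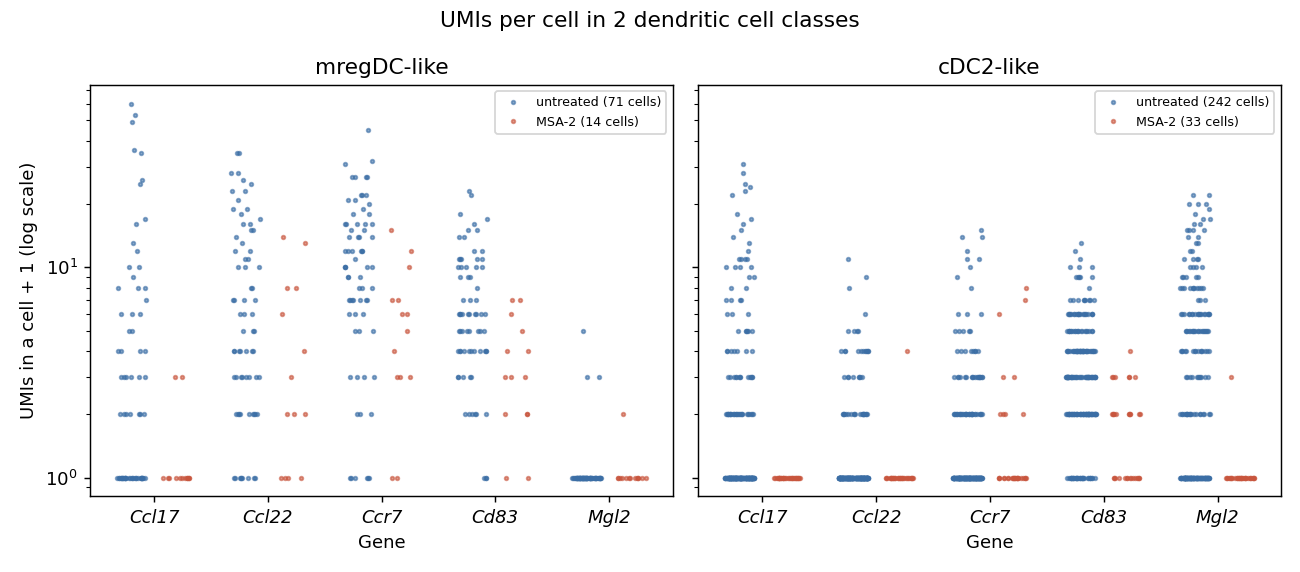
UMIs of 5 genes in single mregDC-like (left) and cDC2-like (right) cells, as UMIs + 1 on a log axis; each point is 1 cell. After MSA-2, 10 of 14 mregDC-like cells still hold Ccl22 and 12 hold Ccr7, whereas 2 hold Ccl17, and 1 of 33 cDC2-like cells holds Mgl2.

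cDC1-like cells, the cross-presenting DCs, also carried both ligands in the untreated library. 201 Ccl17 UMIs lay in 19 of 64 cells, 59 of them in 1 cell, and 106 Ccl22 UMIs in 17. 21 of the 64 had Ccr7, 12 of these also had Ccl22, and 18 had Xcr1, a gene that names the class and was found in 54 of all 64 cells. Only 2 cDC1-like cells were recovered after MSA-2, with 0 UMIs of Ccl17, Ccl22 and Ccr7, too few to compare. A cluster led by no listed class, unnamed myeloid cluster 6, held 88 untreated Ccl17 UMIs, of which 76 were in a single cell.

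Mgl2 marked a part of the cDC2-like cells. 798 of its 1522 untreated UMIs (52.4%) were there, in 134 of 242 cells (542 CPM). The macrophage-like cells held 229, at 14.9 CPM, and unnamed myeloid cluster 6 held 206. Resident macrophage-like cells were higher, at 105 CPM. mregDC-like cells had 8 UMIs in 3 of 71 cells. In the population low in Ptprc, Mgl2 stood at 0.810 CPM untreated and 0.0184 CPM after MSA-2. In the cDC2-like cells of the MSA-2 library 2 UMIs remained, in 1 of 33 cells, a log2 ratio of -4.82 (interval -7.87 to -2.97). Macrophage-like cells went from 229 to 2 UMIs, a log2 ratio of -4.89 (interval -7.94 to -3.02). Resident macrophage-like cells, which numbered 82 and 242, went from 56 to 5 UMIs (105 and 3.13 CPM). Mgl2 was therefore lower in these 3 classes, also in the one that was more numerous, while in mregDC-like cells 8 and 1 UMIs were too few to compare.

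Genes of type 2 DCs in general, Mgl2 among them, were counted in the same cells. Across the 15 genes of a type 2 DC list, 14 had 10 or more UMIs in this class. 5 were at least 2-fold lower by CPM (27.1% of all 8809 genes were), of which 1 is Mgl2 and another, Cd1d1, had 16 and 0 UMIs, too few to set a 2-fold limit, and 1 at least 2-fold higher (12.6% of genes), with a median log2 ratio of -0.37 against -0.21 over all genes. 6 of the list's genes also name the class. H2-DMb2, an MHC class II chaperone chain, had 237 and 47.9 CPM, and Cd209a, a C-type lectin, 62.5 and 9.57 CPM. Csf2rb, the shared chain of the GM-CSF, IL-3 and IL-5 receptors, had 283 and 67.0 CPM, a log2 ratio of -2.08 (interval -3.40 to -1.02). Flt3, the receptor for the DC growth factor, was at 27.2 and 28.7 CPM and Irf4, a transcription factor of type 2 DCs, at 56.4 and 67.0 CPM. Ccr2, a monocyte chemokine receptor, was higher, at 75.4 and 182 CPM. Markers of other cells moved with these values: all 8 genes of the Ly6c2 monocyte list had UMIs in both libraries, summing to 1980 and 5571 CPM, and the 10-gene neutrophil list to 80.2 and 603 CPM, with 6 and 7 genes detected. The 10-gene macrophage list went the other way, from 3741 to 689 CPM, with 10 and 8 genes detected (Apoe at 1416 and 144 CPM, C1qa at 807 and 86.2 CPM), and the class's own 8-gene list from 905 to 469 CPM. Their part in the result was not tested.

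Cd83 had the widest distribution. Macrophage-like cells held 56.4% of the untreated UMIs (7901, in 2016 of 2442 cells), and the highest levels were in mregDC-like (1101 CPM) and cDC1-like cells (802 CPM), followed by macrophage-like (513 CPM), cDC2-like (422 CPM), resident macrophage-like (418 CPM) and Ly6c2 monocyte-like cells (336 CPM) among the named classes. The gap between the libraries ran by class. Among the DC, macrophage and monocyte classes with at least 14 cells in each library, it was smallest in mregDC-like cells (1101 and 650 CPM, log2 ratio -0.76, interval -1.29 to -0.27) and cDC2-like cells (422 and 249 CPM, -0.76, interval -1.39 to -0.20). In macrophage-like cells it was -1.83 (interval -1.95 to -1.70; 513 and 145 CPM), and in resident macrophage-like cells -1.72 (interval -2.01 to -1.44).

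In Ly6c2 monocyte-like cells Cd83 had 973 UMIs in 756 cells and 46 UMIs in 625 cells (336 and 18.9 CPM), a log2 ratio of -4.15 (interval -4.61 to -3.72). Different clusters hold this class in the libraries: cluster 4 had 732 untreated and 113 MSA-2 cells, and cluster 7 had 24 and 512. Within cluster 4 the log2 ratio was -3.38 (interval -4.29 to -2.60) and within cluster 7 it was -4.63 (interval -5.35 to -3.92), so the gap was present in both. Neutrophil-like cells numbered 55 and 2645 and held 15 and 6 Cd83 UMIs (159 and 1.18 CPM), a log2 ratio of -7.08 (interval -8.73 to -5.63), with 8 of the 15 in 1 cell. After MSA-2 they carried 2 Ccr7 UMIs and no Ccl17, Ccl22 or Mgl2. Of the members tested with 10 or more UMIs, 3 of 5 in macrophage-like cells were at least 2-fold lower by CPM (9.14% of genes; Ccl17, with 23 and 0 UMIs, only at least 1.98-fold by the limit of 3 counts) and 2 were at least 2-fold higher (8.78% of genes), and 2 of 3 in Ly6c2 monocyte-like cells were lower (14.4% of genes) and none higher (13.9% of genes).

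Ccr7 was shared between DCs and lymphocytes. mregDC-like cells held 37.1% of its untreated UMIs (784, in 65 of 71 cells) and all T and NK cells together 28.9% (610, in 193 of 1528 cells). In mregDC-like cells the level was 1953 CPM untreated and 1245 CPM after MSA-2, in 12 of 14 cells, a log2 ratio of -0.65 (interval -1.03 to -0.29). In cDC2-like cells the direction depended on the scale. By CPM it was 152 and 249, with 223 UMIs in 76 of 242 cells and 26 UMIs in 9 of 33 cells, a log2 ratio of 0.72 (interval 0.07 to 1.31). Without the cell with most Ccr7 in each library that ratio was 0.41. By UMIs per cell the log2 ratio was -0.23, and 31.4% and 27.3% of cells had a UMI, at a median depth of 5870 and 3250. Macrophage-like cells had 33 UMIs in 30 of 2442 cells and 31 UMIs in 13 of 800 cells (2.14 and 7.78 CPM), against 1.61 and 0.380 CPM in the population low in Ptprc. Across mregDC-like, cDC2-like and cDC1-like cells together, the share with a Ccr7 UMI was 43.0% (of 377 cells) untreated and 42.9% (of 49) after MSA-2. mregDC-like cells, the class richest in Ccr7, were 71 of the 377 and 14 of the 49, so the pooled share also moves with the mix of classes. Class by class the share was lower, at 65 of 71 and 12 of 14 mregDC-like cells and 31.4% and 27.3% of cDC2-like cells. The 2 cDC1-like cells were too few to compare. The pDC-like cells, 17 and 2 in number, were left out of the pooled share and stood at 0 and 664 CPM.

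**Figure D4:**
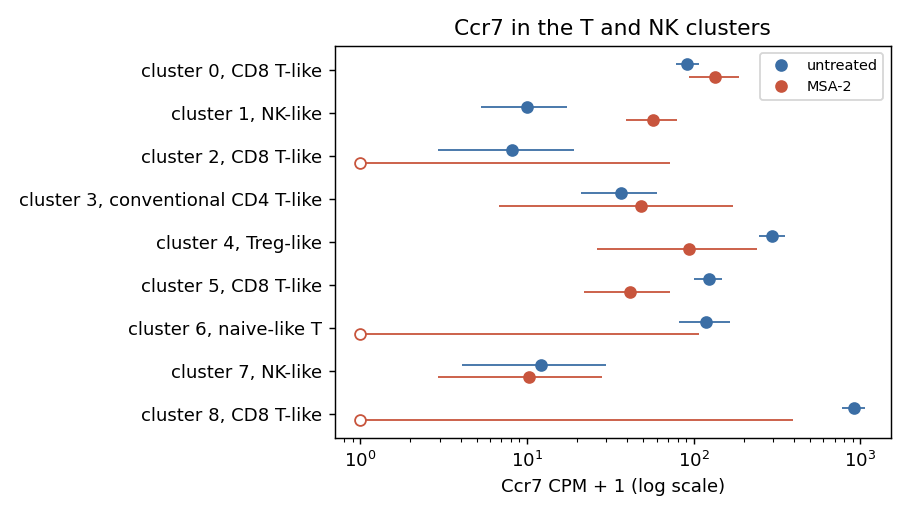
Ccr7 in 9 clusters of T and NK cells, as CPM + 1 on a log axis with 95% Poisson intervals; open circles are 0 UMIs. Cluster 8, of 37 untreated cells, stands highest at 911 CPM, and only 2 of its cells are in the MSA-2 library.

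Over all T and NK cells, Ccr7 had 610 and 87 UMIs (102 and 53.4 CPM), a log2 ratio of -0.93 (interval -1.28 to -0.61). This total also moves with the mix of clusters. Among lymphocytes, the level of Ccr7 was highest in a CD8 T-like cluster of 37 untreated cells (cluster 8, with 154 UMIs in 28 cells, 911 CPM). Its leading genes included Ccl1, a ligand of Ccr8, Penk and Tnfsf11 (RANKL). The MSA-2 library had 2 such cells, without a Ccr7 UMI. Treg-like cells followed, with 120 UMIs in 43 of 163 cells (295 CPM) and 4 UMIs in 2 of 17 cells (92.8 CPM), a log2 ratio of -1.67 (interval -3.57 to -0.27). A cycling cluster (cluster 5, led by Mki67 and Cenpf), which the markers call CD8 T-like, had 122 and 40.5 CPM. It also held 44 Foxp3 UMIs untreated, 25.9% of those of this Treg-defining gene, so it is not made of CD8 T cells alone. Naive T cells use Ccr7 to enter lymph nodes. The naive-like T cells had 34 UMIs in 20 of 86 cells (117 CPM) and none in 12 cells, which allows up to 25% of cells with a UMI. Their name comes from the marker list only. Untreated, they also held 893 Ccl5 UMIs in a total of 289928 UMIs, against 8569 in 3393300 for CD8 T-like cells. In the largest CD8 T-like cluster (cluster 0, with Pdcd1 and Havcr2 among its leading genes) the values were 90.7 and 133 CPM, a log2 ratio of 0.55 whose interval, -0.02 to 1.10, holds no change. NK-like cells had 14 and 35 UMIs, but 22 of the 35 were in 1 cell. Without the cell with most UMIs in each library the counts were 11 and 13 and the log2 ratio moved from 2.04 to 0.97.

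Ccr4, the receptor for both ligands, was at the limit of detection. Of 25 untreated UMIs, 8 were in conventional CD4 T-like cells (7 of 190 cells), 4 in CD8 T-like cells, 3 in Treg-like cells (3 of 163 cells) and 9 in the population low in Ptprc. Of 18 MSA-2 UMIs, 5 were in 3 of 23 conventional CD4 T-like cells and 13 in the population low in Ptprc. At 19.1 CPM, conventional CD4 T-like cells stood above the 0.0608 CPM of the latter. A difference between libraries was not detectable at this depth beyond 1 class of 23 cells (log2 ratio 2.64, interval 0.68 to 4.43). The lymphocytes that could carry it were fewer, with 1528 T and NK cells untreated and 300 after MSA-2, among them 163 and 17 Treg-like and 190 and 23 conventional CD4 T-like cells.

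Cells that held several of the genes were counted by class. Of the 62 untreated mregDC-like cells with Ccl22, 59 also had Ccr7, and of the 40 with Ccl17, 37 had Ccl22 and 39 had Ccr7. After MSA-2, 8 of the 10 with Ccl22 had Ccr7. Of the 85 untreated cDC2-like cells with Ccl17, 77 had Cd83, 72 had Mgl2, 33 had Ccr7 and 33 had Ccl22. Thinned to 1500 UMIs, 47 had Ccl17, and of these 28 had Mgl2, 22 had Cd83, 9 had Ccr7 and 9 had Ccl22. Over all untreated cells, 44.3% of the 244 with Ccl22 also had Ccr7, and 62.8% of 86 did when cells were thinned to 1500 UMIs.

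The genes with the most similar pattern were ranked by Pearson's r of log2(CPM + 1) over 26 class-by-library profiles, among 15863 genes with 100 or more UMIs. The profiles share their libraries and depth, so r is a description. Ccl17 was most like Ccl22 (0.921), followed by H2-Eb2 (0.898), Dcstamp and Tm4sf5 (0.882 each) and H2-Ob (0.859). Ccl22 was most like Flt3 (0.938), Bcl2l14 (0.923), Ccl17 (0.921), Tm4sf5 and H2-Eb2 (0.920 each). For Cd83 the nearest were the MHC class II genes H2-Ab1 (0.929), Cd74 (0.927), H2-Aa (0.923), H2-Eb1 (0.916) and H2-DMa (0.910). Mgl2 was nearest to Dcstamp (0.955), Gm20703 (0.843), H2-DMb2 (0.842), Ccl17 (0.812) and Ear2 (0.811). Ccr7 was most like Fnbp1 (0.881), Gpr183 (0.867), Eipr1 and Wnk1 (0.858 each) and Traf6 (0.857). Ccr4 had too few UMIs to be ranked.

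Several costimulatory genes were higher in the mregDC-like cells of the MSA-2 library. Of the 12 DC maturation surface genes, Cd83 included, 10 had 10 or more UMIs in this class, none was at least 2-fold lower (23.9% of all 5117 genes were) and 4 were at least 2-fold higher (13.3% of genes), with a median log2 ratio of 0.95 against -0.20 over all genes. Cd200 also names the class. Cd86, which costimulates through Cd28, had 994 and 2545 CPM (log2 ratio 1.36, interval 1.07 to 1.64), and Tnfsf4 (OX40 ligand) had 105 and 307 CPM (1.55, interval 0.65 to 2.40). Cd200 had 309 and 704 CPM, Tnfsf9 (4-1BB ligand) 182 and 397 CPM, and Cd40, the receptor for T cell help, 204 and 397 CPM. Cd274 (PD-L1) had 1086 and 2040 CPM and Cd70 169 and 325 CPM. Cd80 (665 and 740 CPM) and Pdcd1lg2 (252 and 162 CPM) had intervals that held no change.

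**Figure D5:**
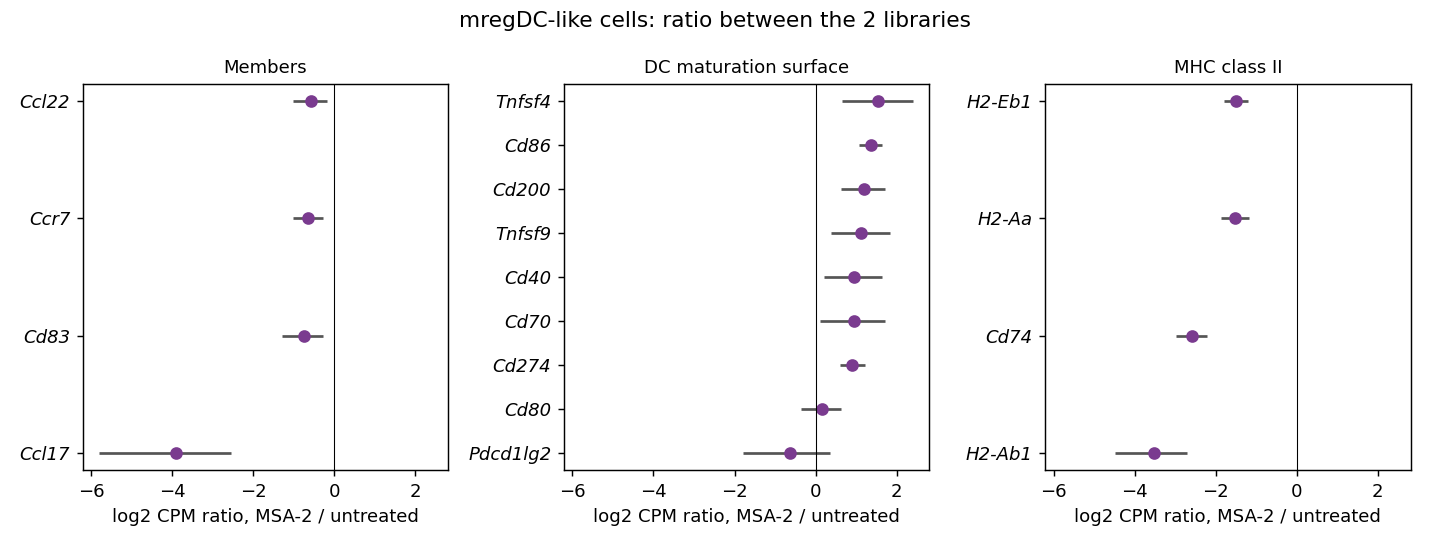
Log2 ratio of CPM between the libraries in mregDC-like cells for the members, other DC maturation surface genes and MHC class II genes with UMIs in both, with 95% counting intervals. The members lie to the left of 0, with Ccl17 at -3.92, whereas Cd86 lies at 1.36 and H2-Ab1 at -3.53.

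In the mregDC-like cells the 25-gene mregDC programme had a median log2 ratio of 0.04 over 24 genes, but 11 of its genes also name the class and give no independent evidence. Il12b, a subunit of IL-12 and one of the naming genes, had 2611 and 993 CPM, and Ccl5, a chemokine induced by interferon, 7081 and 39116 CPM. Of the 7 MHC class II genes with 10 or more UMIs, the 4 with UMIs in both libraries (H2-Aa, H2-Ab1, H2-Eb1 and Cd74) were at least 2-fold lower (23.9% of genes). H2-Ab1 had 2494 and 217 CPM (log2 ratio -3.53, interval -4.48 to -2.71) and Cd74, the invariant chain, 6521 and 1083 CPM (-2.59, interval -2.98 to -2.22). H2-DMa, H2-DMb1 and H2-Oa had 38, 20 and 18 UMIs untreated and 0 after MSA-2, and with the limit of 3 counts a 2-fold difference was not detectable at this depth. In cDC2-like cells none of the 8 was at least 2-fold lower (27.1% of genes), with Cd74 at 14577 and 9898 CPM. Each except Ciita was still lower there by less than 2-fold, with an interval below 0, such as H2-Ab1 at -0.81 (interval -0.94 to -0.68). Neutrophil genes moved with the mregDC-like values, with 1 of 10 detected untreated and 8 of 10 after MSA-2, and a sum of 4.98 and 5830 CPM. The 10-gene macrophage list summed to 1677 and 144 CPM, with 10 and 4 genes detected, and the 8-gene Ly6c2 monocyte list to 324 and 1354 CPM, with 8 and 5 detected (Plac8 at 229 and 1173 CPM). Their part in the result was not tested.

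In macrophage-like cells the same list was split. 11 of 12 DC maturation surface genes had 10 or more UMIs, 2 were at least 2-fold lower (9.14% of genes; Cd83, and Icosl, an Icos ligand, at 16.4 and 5.27 CPM) and 4 at least 2-fold higher (8.78% of genes), with a median log2 ratio of 0.46 against -0.14 over all genes. Cd200 went from 12 to 75 UMIs, Tnfsf9 from 20.6 to 67.7 CPM and Cd274 from 313 to 717 CPM. All 8 MHC class II genes were at least 2-fold lower there (9.14% of genes), among them H2-Ab1 at 3812 and 667 CPM and Ciita, the class II transactivator, at 25.4 and 2.76 CPM. In Ly6c2 monocyte-like cells 9 of the 12 were tested, 1 was at least 2-fold lower (14.4% of genes) and 5 higher (13.9% of genes). Cd86 was higher there (406 and 986 CPM) where Cd83 was lower. All 8 MHC class II genes were at least 2-fold lower (14.4% of genes), with H2-Aa at 3627 and 28.0 CPM. As given above, different clusters hold this class in the libraries.

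The other genes of the Ccr4 and Ccr7 axis were spread over other cells. Of 11 genes, 6 were at least 2-fold lower over all cells, 3 of them members (9.16% of genes), and 1 at least 2-fold higher (12.5% of genes). Ccl19, a ligand of Ccr7, had 114 and 1349 UMIs (0.622 and 7.08 CPM, log2 ratio 3.51, interval 3.23 to 3.80), and 86.3% of the MSA-2 UMIs lay in fibroblast-like cells, which went from 200 to 673 cells. Ccl21a, the other ligand, had 44 UMIs untreated, 37 of them in endothelial-like cells, and 2 after MSA-2. Ccr8, another chemokine receptor of tumor Tregs, had 130 and 5 UMIs. Of the untreated ones, 46.9% lay in CD8 T-like cells, where 34 of 61 were in the cycling cluster, 22.3% in Treg-like and 16.9% in conventional CD4 T-like cells. Its ligand Ccl1 had 595 and 30 UMIs, 72.4% of the untreated ones in CD8 T-like cells. Dpp4, a peptidase that cleaves Ccl22, was at 4.02 and 4.09 CPM.

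A list of genes of known Ccl17 or Ccl22 induction was counted in the same way. Of 13 on that list, 12 had 10 or more UMIs over all cells, 1 was at least 2-fold lower (Irf4, 2.93 and 0.808 CPM; 9.16% of genes) and 4 at least 2-fold higher (12.5% of genes), with a median log2 ratio of 0.10 against 0.01 over all genes. Tslp had 47 and 694 UMIs, 82.9% of the latter in fibroblast-like cells. Csf2 (GM-CSF) had 122 and 1158 UMIs, 55.2% of the latter in the population low in Ptprc and 41.5% in fibroblast-like cells. Il33, an alarmin, had 10.9 and 81.2 CPM, and Il13ra1 22.9 and 62.0 CPM. Il4, the ligand upstream of Stat6, had 53 and 54 UMIs over all cells but 2 and 16 in T and NK cells (0.334 and 9.82 CPM, log2 ratio 4.88, interval 2.79 to 8.04), and Stat6 itself was at 23.7 and 20.4 CPM.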

How the data were processed

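The deposited matrices of the authors hold unnormalized UMI counts from 3′ (v3.1) droplet libraries of 14386 untreated and 14617 MSA-2 barcodes. The submitters' processing notes name Cell Ranger 7.0.0, Seurat 4.3.0 and mm10. No cell annotation was used. Barcodes under 500 genes or above 20% mitochondrial UMIs were dropped, leaving 14039 and 13963, and doublets called with Scrublet in scanpy 1.11.5 (705 and 617) were removed. Cells were clustered in Seurat 5.3.0 (2000 variable genes without interferon-stimulated genes and the 6 genes described, RPCA integration, 30 dimensions, resolution 1), and the myeloid and lymphoid cells again. A cluster was named from marker lists (mean scaled score of at least 0.5, at least 3 markers detected), by a scoring rule refined after the clusters were seen. UMIs were summed per class and library and divided by the class total. Intervals are exact at 95% (Poisson, Clopper-Pearson, conditional binomial). With 1 library per condition no test across genes was run; the ratio was tested on simulated data. A 0 is bounded by 3 counts per library, with UMIs taken as independent. Lists of genes count those with 10 or more UMIs as tested and add 1 CPM for medians. From each list, genes with at least 20 UMIs in the class were named, up to 5 highest and 5 lowest, and for each gene the 5 most similar; a few others were named after their values were seen. The 6 genes and the lists were chosen with earlier results of these data known. Total UMIs of kept cells were 183401778 and 190514883. Alternatives covered cell filters, doublets, scaling (edgeR 4.0.16 TMM), clustering, thinning to 1500 UMIs and added CPM.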

Additional observations from a re-analysis of the deposited data

How the results depend on the processing

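No paired analysis was possible because each condition is 1 library. By CPM no ratio of a member or class changed sign under the alternatives run. By UMIs per cell Ccr7 in cDC2-like cells was at -0.23, against 0.72. The mregDC programme's median in mregDC-like cells, 0.04, was -0.01 with doublets kept and -0.02 at 1000 genes and 10% mitochondrial UMIs. Among the values behind the main statements, 171 moved by less than the error given to them and 39 by more. Among the other values, 1 stayed the same and 7 moved. The 14 MSA-2 mregDC-like and 33 cDC2-like cells limit every value within those classes.

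With equal weight per cell the all-cell log2 ratios were -5.67 for Ccl17, -2.85 for Ccl22, -2.44 for Ccr7 and -3.12 for Cd83, and over immune cells only -6.20, -2.68, -1.93 and -2.61. Mgl2 was at -6.50 and -6.15, so over immune cells only the widest gap was that of Ccl17. Picking mregDC-like cells by markers gave -1.25 for Ccl22, -1.53 for Ccr7 and -1.14 for Cd83, against -0.59, -0.65 and -0.76. Per macrophage-like cell the log2 ratio was -0.73 for mregDC-like and -1.26 for cDC2-like cells. For cDC1-like cells the log2 ratio of shares ran from -5.99 to -3.39 over the alternatives, against -5.00. They numbered 90 and 6 with the 6 genes kept in the clustering. At resolution 0.5, Cd83 in Ly6c2 monocyte-like cells was at -3.32 and the type 2 DC median at -0.73. At resolution 2, Cd83 in macrophage-like cells was at -1.62, and 26.9% of Ccl17 and 46.1% of Mgl2 UMIs lay in cDC2-like and 62.5% of Cd83 in macrophage-like cells. With the 6 genes kept in the clustering, 28.3% of Ccl17 lay in cDC2-like cells, the MHC class II median in mregDC-like cells was -4.11 and the type 2 DC median -0.73. Without integration, Cd83 was at -1.70 in macrophage-like and -2.90 in Ly6c2 monocyte-like cells. There mregDC-like cells held 34.0% of Ccr7 and 26.0% of Ccl17, cDC2-like cells 35.9% of Ccl17 and macrophage-like cells 59.7% of Cd83, and the MHC class II median was -4.59. With doublets kept, mregDC-like cells held 55.8% of Ccl22, 32.6% of Ccr7 and 24.4% of Ccl17, cDC2-like cells 47.7% of Mgl2 and macrophage-like cells 60.2% of Cd83. At 1000 genes and 10% mitochondrial UMIs the last was 57.4%. With 10 CPM added, the MHC class II median in mregDC-like cells was -2.58 and the maturation median in macrophage-like cells 0.13. With at least 50 UMIs the MHC class II median was -2.05, against -3.52 over the 7 genes with 10 or more. Thinned to 1500 UMIs, 62.8% of cells with Ccl22 had Ccr7. The share of all genes at least 2-fold lower was 7.61% with at least 50 UMIs and 2.20% with no minimum and 1 CPM added, against 9.16%. Chosen after seeing the data, leaving out the cell with most UMIs gave 0.97 for Ccr7 in NK-like cells, and Cd83 was at -3.38 in Ly6c2 monocyte cluster 4 and -4.63 in cluster 7. Mgl2 in cDC2-like cells without that cell gave no value. The causes were not tested.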
